A study of Mus musculus with 18 samples.

Results

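The chronic state was described from the mice that received 10 daily injections of clenbuterol (10 D) and the mice that received vehicle (C). Its members were the arrays so labelled, which are 12 of the 18 arrays and hold 6 of the 9 RNA pools of the series. Gracilis, a thigh muscle, came from male C57BL/6J mice, and each pool held RNA of 3 mice. The age given for the mice used was 3 to 5 weeks, and an acclimation period came before the injections. C mice were given 10 intraperitoneal injections of vehicle, 10 D mice 10 of clenbuterol at 1 mg/kg, and the 24 h mice, which serve here for reference, 9 of vehicle and then 1 of clenbuterol. All mice thus had 10 injections and were killed 24 h after the last, so the 10 D pools also carry the response to a recent dose. The study picked mice whose weight gain and blood urea nitrogen set the treatments far apart, and treated whole cages alike, so the pools of a group can share cages and stand for selected animals.

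Clenbuterol is an agonist of the beta-adrenergic receptors. In skeletal muscle these receptors act through a stimulatory G protein, adenylyl cyclase and cyclic AMP, which activates protein kinase A and transcription factors of the CREB family. In fat cells the same pathway drives the release of fatty acids from stored triglyceride. Given for days, the drug is known for muscle growth together with loss of fat, and continued exposure is known to blunt the response of the receptors.

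Every pool was run on 2 Affymetrix chips, MOE430A and MOE430B, and the level of a probeset, the set of probes that reports a transcript, is its signal divided by the median signal of the array. A level of 1 is therefore a typical probeset, and levels are compared only within a probeset. The array medians ranged from 30.8 to 88.4 on MOE430A and from 14.9 to 37.1 on MOE430B over the C and 10 D pools. Pool 1 of 10 D was the brightest on both chips and pool 2 of 10 D among the dimmest. Pool 1 of C was the dimmest on MOE430A. The root mean square departure from the group mean on MOE430A (log2) was 0.37 for C pool 1, 0.56 for 10 D pool 1 and 0.63 for 10 D pool 2. Whether array brightness bears on the spread was not tested. The spread between pools of a group, as a root mean square SD on the log2 scale, was 0.45 in C and 0.66 at 10 D on MOE430A, and 0.62 and 0.70 on MOE430B. The markers of the tissue were all bright. Acta1, skeletal muscle actin, had levels of 393, 234 and 321 in C and 169, 280 and 320 at 10 D, and Ckm, muscle creatine kinase, 422, 262 and 335 in C and 177, 364 and 352 at 10 D. Albumin (Alb), a liver transcript, lay between 0.768 and 1.28 in these pools.

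No transcript was called at 10 D. Of 33752 tested probesets 0 had an adjusted p under 0.1 against C (0%), and the smallest adjusted p was 0.111, shared by 3 probesets. An unadjusted p under 0.05 was reached by 1540 probesets (4.56%), of which 892 (2.64%) were higher at 10 D and 648 (1.92%) lower. All 10 D pools lay above all C pools for 1945 probesets (5.76%) and below them for 1526 (4.52%), 10.3% together. In an exact permutation test 3 pools against 3 cannot give a p under 0.1, so such a separation is given as a description.

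The changes were small for most transcripts. The median of the absolute log2 change was 0.26, a 1.198-fold difference, against a median standard error of 0.37, and 99% of the probesets lay within 1.60, or 3.04-fold. Among the brighter 8485 probesets of MOE430A the median absolute change was 0.20 and 99% lay within 0.997. A change of at least 2-fold together with pools that did not overlap was seen for 372 probesets higher (1.1%) and 383 lower (1.13%). The nearest pools of the groups stood at least 2-fold apart for 33 probesets higher (0.0978%) and 27 lower (0.08%), and for 30 of the 33 and 27 of the 27 the lower group mean was under the array median.

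**Figure D1:**
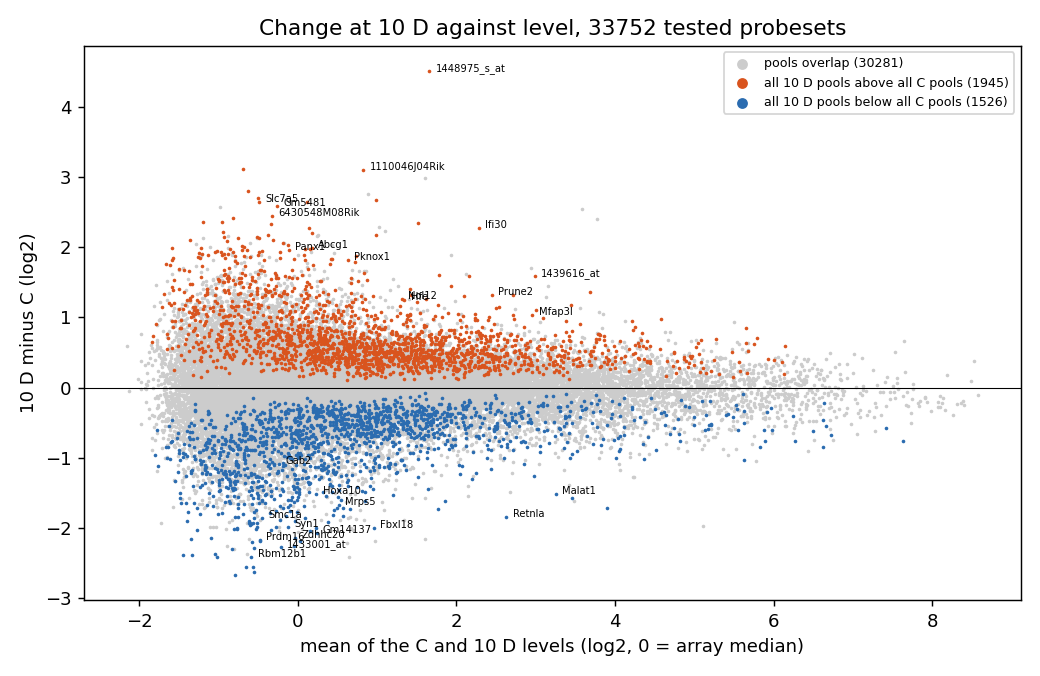
Change at 10 D (10 D minus C, log2) against the mean of the C and 10 D levels (log2, where 0 is the array median) for 33752 tested probesets. Orange and blue points are probesets whose 3 pools at 10 D all lie above (1945) or below (1526) the 3 C pools, grey points overlap, and the labelled points are the leading genes and 3 probesets with no listed gene. The largest changes sit near or under the array median, and bright probesets stay close to 0.

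The most distinct probesets at 10 D were higher than in C. Probeset 1439616_at, for which the annotation lists no gene, had levels of 3.31, 4.88 and 3.79 in C and 11.6, 12.4 and 11.5 at 10 D, a log2 difference of 1.59 ± 0.20 (SE, 3 pools a side; limma, adjusted p = 0.111). Its 24 h levels were 14.04, 16.9 and 13.3. Probeset 1448975_s_at, also without a listed gene, showed the largest separation of all, from 0.533, 0.134 and 0.224 in C to 8.26, 3.89 and 5.85 at 10 D, with nearest pools 7.31-fold apart (log2 difference 4.51 ± 0.56, limma, adjusted p = 0.111). At 24 h it stood at 1.06, 0.580 and 1.90, below each of the 10 D pools.

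Slc7a5, the light chain of the LAT1 transporter for large neutral amino acids, was the leading named gene. Its levels were 0.153, 0.179 and 0.250 in C and 0.879, 1.14 and 1.67 at 10 D (log2 difference 2.65 ± 0.33, limma, adjusted p = 0.111), and at 24 h they were 2.22, 3.20 and 2.85. All 3 of the 10 D pools were thus above C, and all of them were below the 24 h pools. Panx1, a membrane channel that releases ATP, had 0.445, 0.302 and 0.402 in C and 1.49, 1.52 and 1.38 at 10 D (log2 difference 1.95 ± 0.26, limma, adjusted p = 0.158), against 1.37, 1.19 and 1.06 at 24 h. Its 10 D pools were closely grouped and stood at or above every 24 h pool.

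Further genes were higher in every 10 D pool. Prune2 went from 3.55, 2.70 and 3.08 in C to 7.01, 6.57 and 9.88 at 10 D on 1455342_at, while its other probesets overlapped (-0.15, 0.66 and 0.14). Mfap3l was near constant in C, at 5.05, 5.04 and 5.07, and stood at 9.24, 9.79 and 12.5 at 10 D, while its 24 h pools lay at 4.33, 4.51 and 4.44. Its 10 D pools stood above both other groups, and its 2 other probesets were also higher than C in each 10 D pool. Abcg1, an exporter of sterols from cells, had levels of 0.566, 0.452 and 0.359 in C, 0.959, 0.924 and 0.798 at 24 h, then 1.57, 2.07 and 1.78 at 10 D on 1455221_at, with no overlap between any of the 3 groups. Its other probeset, 1423570_at, overlapped with C (0.08). Ifi30, a thiol reductase of the lysosome, stood at 2.57, 1.98 and 0.801 in C and 9.01, 5.61 and 9.28 at 10 D. Hfe, which takes part in the control of iron uptake, stood at 1.45, 1.37 and 1.67 in C and 3.33, 4.39 and 3.01 at 10 D. Its other probeset was also higher in every 10 D pool (0.61). The log2 differences of these genes were 1.32 for Prune2, 1.04 for Mfap3l, 1.99 for Abcg1, 2.28 for Ifi30 and 1.24 for Hfe, and their adjusted p-values in limma lay between 0.503 and 0.553.

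Among the 12 leading genes that were lower in every 10 D pool was Retnla, resistin-like molecule alpha, a secreted protein of fat and alternatively activated macrophages. Its levels were 12.6, 10.9 and 5.87 in C and 2.36, 3.04 and 2.43 at 10 D (log2 difference -1.84 ± 0.37, limma, adjusted p = 0.553). Malat1, a long non-coding RNA of the nucleus, had 13.1, 15.4 and 13.0 in C and 2.83, 5.16 and 7.69 at 10 D (log2 difference -1.52 ± 0.33, limma, adjusted p = 0.553). All 7 probesets of Malat1 were lower at 10 D, by 0.11 to 1.97 on the log2 scale, and 4 of the 7 did not overlap. Smc1a, a subunit of cohesin, had 1.28, 1.06 and 1.11 in C and 0.329, 0.316 and 0.307 at 10 D on 1417832_at, but its 2 other probesets, both overlapping, differed by 0.03 and 0.04.

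Disagreement of this kind was common among the leading genes. Taking the 12 genes with the smallest p in each direction whose brighter group reached the array median, 15 of the 24 had another tested probeset. In 4 of the 15 (Mfap3l, Hfe, Malat1 and Hoxa10) another probeset was separated in the same direction, and in 8 of the 15 another had the opposite sign. Gab2, a signalling adaptor, had 1 probeset lower (log2 difference -1.08) and 1 higher (1.19) in every 10 D pool.

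**Figure D2:**
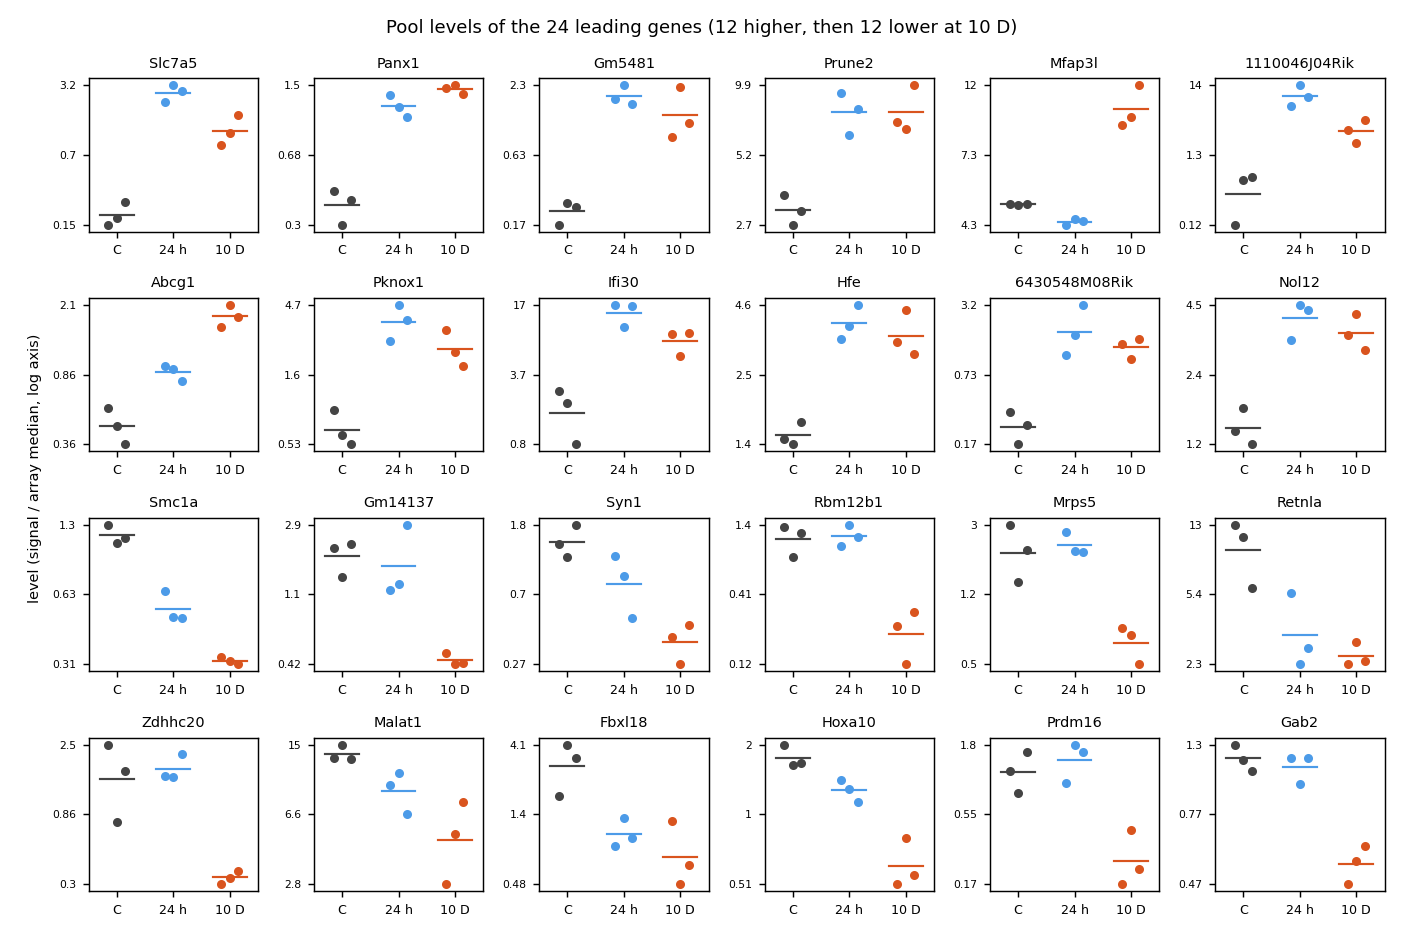
Levels (signal divided by the array median, log axis scaled to each gene) of the 12 genes higher and the 12 genes lower at 10 D with the smallest p, 1 probeset each, in the 3 pools of C, 24 h and 10 D. Points are pools and lines are geometric means. In each panel the C and 10 D points are separated, as the choice of genes required, while the 24 h points lie on either side, as in Mfap3l, where they are under the C pools.

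Components and targets of the cyclic AMP pathway showed few differences from C. Of 14 tested genes for beta-adrenergic receptors, G proteins and adenylyl cyclases, 1 was higher and 1 lower in every 10 D pool. Against all 15184 genes, 6.26% were separated upward and 4.29% downward, with 1 probeset per gene. Gnas, the stimulatory G protein alpha subunit, had 58.7, 55.1 and 66.6 in C and 66.6, 85.0 and 81.2 at 10 D, where the nearest pools differed by very little, and its 2 other probesets overlapped with negative differences. Rgs2, an inhibitor of G protein signalling, had 2.91, 3.19 and 3.46 in C and 2.38, 1.98 and 2.67 at 10 D. Among 28 targets, phosphodiesterases and kinase A genes 3 were separated upward and 1 downward, with a median log2 difference of -0.18 against 0.03 over all genes. Crem, whose product both activates and represses cyclic AMP target genes, stood at 1.53, 1.03 and 0.827 in C, 2.96, 2.65 and 4.54 at 24 h, then 2.17, 1.54 and 1.95 at 10 D, and of its 2 other probesets 1 was higher (0.48) and 1 overlapped (-0.60). Nr4a1, an orphan receptor that cyclic AMP induces within hours, was at 21.5, 22.8 and 21.6 in C and 22.2, 16.5 and 19.5 at 10 D, with overlap. Of the phosphodiesterases that degrade cyclic AMP, Pde4d overlapped between groups, and Pde4b was separated on 1 of 4 probesets, at 6.06, 8.28 and 10.1 in C and 3.69, 4.66 and 3.66 at 10 D. Pde7a was higher in every 10 D pool on 1438041_at (0.45) and 1458218_s_at (0.66) and overlapped on its other probesets. Pde3a was higher in every 10 D pool (0.72), with mean levels under the array median.

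Promoter sequence is shown for Panx1 and Prune2, from the leading genes higher at 10 D, to look at the cyclic AMP response element. They are not members of the cyclic AMP lists above. The 250 bases before the gene start come from RefSeq (GRCm38.p6), run 5′ to 3′ on the gene's strand, and carry in capitals the core TGACG of the element, searched on both strands. The windows are chr9:15045479-15045728 on the minus strand for Panx1 and chr19:16955868-16956117 on the plus strand for Prune2.
Panx1: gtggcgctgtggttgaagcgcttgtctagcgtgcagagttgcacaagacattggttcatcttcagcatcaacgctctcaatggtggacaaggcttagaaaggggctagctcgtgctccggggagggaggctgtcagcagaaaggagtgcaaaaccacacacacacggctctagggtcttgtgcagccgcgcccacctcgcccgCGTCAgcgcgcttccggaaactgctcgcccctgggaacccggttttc
Prune2: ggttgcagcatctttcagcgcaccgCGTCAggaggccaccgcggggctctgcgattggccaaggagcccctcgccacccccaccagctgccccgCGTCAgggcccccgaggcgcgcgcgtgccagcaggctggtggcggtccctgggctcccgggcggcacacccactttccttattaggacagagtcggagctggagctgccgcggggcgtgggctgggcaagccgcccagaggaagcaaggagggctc
Both windows shown are among those that hold this core, and no window of a leading gene without it is printed. Neither holds the full palindrome TGACGTCA. For 8 of the 12 leading genes higher at 10 D the promoter table had an entry, 11 windows in all, and 4 of the 11 held the core, while 17.8% of all 32851 windows held it. The full element was in 1.55% of all windows and in 0 of the 11. With so few windows this is a description and says nothing of binding.

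Genes of amino acid uptake and protein synthesis contained members that were higher in every 10 D pool. Slc38a2, the sodium-coupled neutral amino acid transporter SNAT2, stood at 10.0, 12 and 11.6 in C and 17.7, 19.2 and 16.7 at 10 D on 1426722_at (log2 difference 0.67 ± 0.19, unadjusted p = 0.006, limma). Its 2 other probesets overlapped and had the opposite sign (-0.24 and -0.19). Over 20 amino acid transporters 3 were separated upward (15%) and 2 downward (10%), against 6.26% and 4.29% of all genes. Of 29 aminoacyl-tRNA synthetases and targets of ATF4, the transcription factor of the amino acid response, 4 were separated upward and 0 downward. These were Wars, Eprs and Yars, which charge tRNA with tryptophan, glutamate or proline, and tyrosine, and Trib3, a pseudokinase. Wars had 3.53, 3.77 and 4.22 in C and 5.63, 5.25 and 7.34 at 10 D. Yars had 2.00, 2.21 and 2.15 in C and 3.92, 4.15 and 3.70 at 10 D. The list median was 0.09, close to the 0.03 over all genes, so most of its members showed no such shift.

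Ribosome production showed the same kind of count. Of 35 genes of ribosome biogenesis 4 were separated upward and 0 downward. Nop56, a core protein of the small nucleolar RNPs that guide rRNA methylation, was at 1.84, 1.74 and 1.63 in C and 4.30, 3.00 and 3.47 at 10 D (log2 difference 1.03 ± 0.24) but differed by -0.45 with overlap on its other probeset, and Rrp12, Gnl3 and Heatr1, also nucleolar, differed by 0.74, 0.44 and 0.31. Of 34 translation factors 3 were separated upward (8.82%, against 6.26% of all genes) and 0 downward (4.29% of all genes). Among them were Eif3c and Eif3d of initiation factor 3, and Eef2k, the kinase that inhibits elongation factor 2. The other Eef2k probesets overlapped with C (-0.035 and -0.20). Another Eif3c probeset, 1415859_at, was lower in every 10 D pool (-0.95). Cytosolic ribosomal proteins themselves had a median of 0.10 over 41 genes, with 0 separated upward and 1, Rpl8, downward. The share separated upward was 11.4% in ribosome biogenesis and 13.8% in the synthetase list, against 6.26% of all genes. Without pool 2 of 10 D they became 22.9% and 27.6%, against 15.7% of all genes.

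Protein degradation gave no common direction with all 10 D pools included. Fbxo32 and Trim63, the muscle ubiquitin ligases atrogin-1 and MuRF1 whose mRNAs mark atrophy, both overlapped with C. Fbxo32 stood at 16.0, 17.5 and 11.2 in C and 11.8, 4.85 and 13.0 at 10 D on 1448747_at (-0.69). Its other probesets overlapped and had the opposite sign (0.17 and 0.68). Trim63 stood at 24.6, 24.1 and 22.2 in C and 38.4, 7.50 and 47.6 at 10 D, so that pool 2 alone was under C and the mean difference was 0.02 ± 0.55. Mul1, a ligase of the mitochondrial outer membrane, was the only member of 20 atrophy ligases and FoxO factors to be separated, at 2.01, 2.09 and 1.55 in C and 2.34, 3.95 and 2.60 at 10 D. That is 5% upward, against 6.26% of all genes. Without pool 2 of 10 D 5 of the 20 were separated upward (25%, against 15.7% of all genes) and 0 downward. The list median was then 0.19, against 0.07 over all genes. Of 31 proteasome subunits 4 were separated upward (12.9%, against 6.26% of all genes) and 0 downward (4.29% of all genes). The 4 were Psmb1, Psmb5, Psmd4 and Psmd11, higher by 0.17 to 0.31 on the log2 scale. This count turned on 1 pool. Without pool 2 of 10 D it was 14 of 31, or 45.2%, where all genes gave 15.7%.

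Asb genes encode substrate receptors of cullin ubiquitin ligases that are abundant in muscle. Asb5 was at 21.9, 29.6 and 27.0 in C and 36.8, 39.3 and 40.8 at 10 D. Asb15 was at 25.2, 26.0 and 28.9 in C, 4.05, 6.32 and 5.07 at 24 h, then 22.3, 17.1 and 23.6 at 10 D, a difference from C of -0.36 ± 0.23 on the log2 scale. The difference of 10 D from 24 h was 2.04 (limma, adjusted p = 0.0233), so Asb15 differed between the durations and was not called against C. The list of 18 Asb, kelch-like and cullin ligase genes had 2 members separated upward (11.1%) and 3 downward (16.7%). All genes gave 6.26% and 4.29%.

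In the insulin-like growth factor and growth hormone axis 6 of 21 genes were lower in every 10 D pool (28.6%, against 4.29% of all genes) and 0 were higher (6.26% of all genes), with a median log2 difference of -0.22. They were the ligand Igf2, the receptors Igf2r and Ghr, the binding protein Igfbp5, the adaptor Irs2 and Grb14, an inhibitor of the insulin receptor. Igfbp5, the main binding protein of muscle, stood at 60.9, 58.7 and 49.5 in C, 17.9, 14.6 and 10.8 at 24 h, then 31.9, 38.9 and 40.4 at 10 D, so the 10 D pools lay between the other groups, while its other probeset differed from C by 0.37 with overlap. Igf2r, which clears the ligand from the cell surface, was at 10.1, 9.26 and 10.1 in C and 7.57, 6.24 and 5.82 at 10 D. Igf2 was at 4.84, 4.36 and 4.37 in C and 2.95, 3.51 and 3.79 at 10 D. Their differences from C were -0.61 ± 0.23, -0.59 ± 0.20 and -0.41 ± 0.20. Ghr, the growth hormone receptor, differed by only 0.19, from 36.4, 36.2 and 36.2 in C to 35.8, 26.8 and 33.2 at 10 D.

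Igf1, the ligand that promotes growth of muscle fibres, overlapped with C on 1437401_at. It stood at 12.04, 8.49 and 8.34 in C, 23.2, 19.5 and 23.2 at 24 h, then 9.56, 8.03 and 8.71 at 10 D (10 D minus C -0.12 ± 0.21). Its 3 other probesets differed by -0.18, 0.16 and 0.47, and the last of these, 1452014_a_at, was higher in every 10 D pool. Without pool 2 of 10 D the list kept a lower median, -0.13, with 7 of 21 genes separated downward (33.3%, against 8.81% of all genes) and 2 upward (9.52%, against 15.7%). Among 22 genes of myostatin, activin and BMP signalling 1 was separated in each direction, the activin receptors Acvr1b (-0.49) and Acvr2a (0.27). That is 4.55% each, against 6.26% upward and 4.29% downward over all genes.

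Sarcomere genes, the bulk of muscle mRNA, had similar negative medians in the fast and slow fibre lists. Of 19 fast fibre genes 17 had a negative difference, with a median of -0.24, but 0 were separated, and the pool medians were 0.37, -0.34 and -0.01 in C and -0.64, 0.10 and 0.03 at 10 D. The lowest of these was pool 1, the brightest array. Myh4, the fastest myosin heavy chain, was at 366, 217 and 283 in C and 138, 323 and 287 at 10 D. Myh7, the slow one, was at 39.5, 46.1 and 34.2 in C and 30.2, 75.3 and 41.6 at 10 D, with overlap in both. Slow fibre genes had a median of -0.22 over 15 genes with 1 separated, Ankrd2 (6.67% downward, against 4.29% of all genes). Their summed level was 598.1 to 722.6 in C and 507.3 to 597.6 at 10 D, which narrowly do not overlap. The fast fibre sum overlapped (3580 to 5711 in C, 2771 to 4749 at 10 D). Without pool 2 of 10 D 4 of the 15 slow genes were separated downward (26.7%, against 8.81% of all genes). Of the fast genes 0 were then separated.

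Myh8, the perinatal heavy chain, was at 0.481, 0.511 and 0.341 in C, 0.589, 0.602 and 0.771 at 24 h, then 1.07, 1.64 and 1.30 at 10 D (10 D minus C 1.59 ± 0.31, limma, adjusted p = 0.553). Myh3, the embryonic one, was at 0.591, 0.299 and 0.418 in C and 0.871, 1.43 and 0.916 at 10 D (1.32 ± 0.65). Both were higher in every 10 D pool, and both stayed near the array median. Myod1, a master regulator of muscle differentiation, was lower in every 10 D pool, at 2.80, 1.99 and 1.94 in C and 1.27, 0.768 and 1.14 at 10 D, although its other probeset overlapped (0.57), and Myog, which acts after it, overlapped with C. The list of 16 embryonic and regenerating genes had 3 members higher (18.8%) and 1 lower (6.25%), with a median of 0.03. All genes gave 6.26% and 4.29%.

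Among 36 genes of the cytoskeleton 3 were separated upward (8.33%) and 1 downward (2.78%), near the 6.26% and 4.29% of all genes. Vcl, vinculin, which links actin to the membrane at costameres, had 14.3, 13.6 and 12.4 in C, 29.8, 26.5 and 28.4 at 24 h, then 24.96, 22.7 and 26.0 at 10 D (10 D minus C 0.87 ± 0.18, limma, adjusted p = 0.553). Its other probeset overlapped with C (-0.20). Emd, emerin of the inner nuclear membrane, was at 2.51, 2.77 and 2.73 in C and 4.01, 3.45 and 2.90 at 10 D, after 14.7, 11.8 and 19.7 at 24 h.

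Genes of fat metabolism were lower as a group. Of 32 genes of fatty acid uptake, storage and oxidation 24 had a negative difference, 6 were lower in every 10 D pool (18.8%, against 4.29% of all genes) and 0 were higher (6.26% of all genes), and the median log2 difference was -0.25. The list medians by pool, taken against the C mean, were 0.07, -0.05 and -0.04 in C and -0.13, -0.49 and -0.11 at 10 D, which do not overlap. Without pool 2 of 10 D the median was -0.11, with 19 of 32 negative and 13 positive. Then 10 were separated downward (31.2%, against 8.81% of all genes) and 1 upward (3.12%, against 15.7%). Dgat2, which makes triglyceride, was at 10.5, 9.01 and 7.07 in C and 6.26, 4.43 and 4.79 at 10 D (-0.78 ± 0.27, unadjusted p = 0.0161, limma). Lipe and Pnpla2, the hormone-sensitive and adipose triglyceride lipases that beta-adrenergic signals act upon, differed by -0.63 and -0.80. Lipe was at 3.86, 2.28 and 2.73 in C and 1.91, 1.93 and 1.75 at 10 D. Lpl, which releases fatty acids from lipoproteins, was at 91.9, 75.0 and 92.7 in C and 67.6, 61.2 and 67.1 at 10 D. Acadm and Etfb, of mitochondrial beta-oxidation, were the other members.

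Markers of fat cells were lower as well. Of 14 tested adipocyte markers 12 had a negative difference and 4 were separated downward (28.6%, against 4.29% of all genes), with a median of -0.49, the lowest of the 48 lists. The pool medians were 0.26, -0.06 and -0.09 in C and -0.25, -0.44 and -0.64 at 10 D. Without pool 2 of 10 D the list median was -0.43, with 10 of 14 negative. The 4 genes were Cidec, a protein of the lipid droplet, at 3.33, 1.98 and 2.35 in C and 1.48, 0.354 and 1.34 at 10 D, Dgat2 and Lipe, which both lists share, and Slc36a2. Adipoq, adiponectin, the defining marker, was at 21.2, 18.8 and 25.7 in C and 28.8, 4.13 and 11.1 at 10 D, with overlap (-0.99 ± 0.66). None of the markers was at 0 in any pool. The summed level of the 14 ranged from 348 to 490 in C and from 281 to 439 at 10 D, with overlap. In whole muscle, fewer fat cells and less of these transcripts per cell cannot be told apart, and the part of fat cells in the lower lipid genes was not tested. Ucp1 and Cidea, markers of brown fat, had positive differences (1.45 and 2.07) and overlapping pools.

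**Figure D3:**
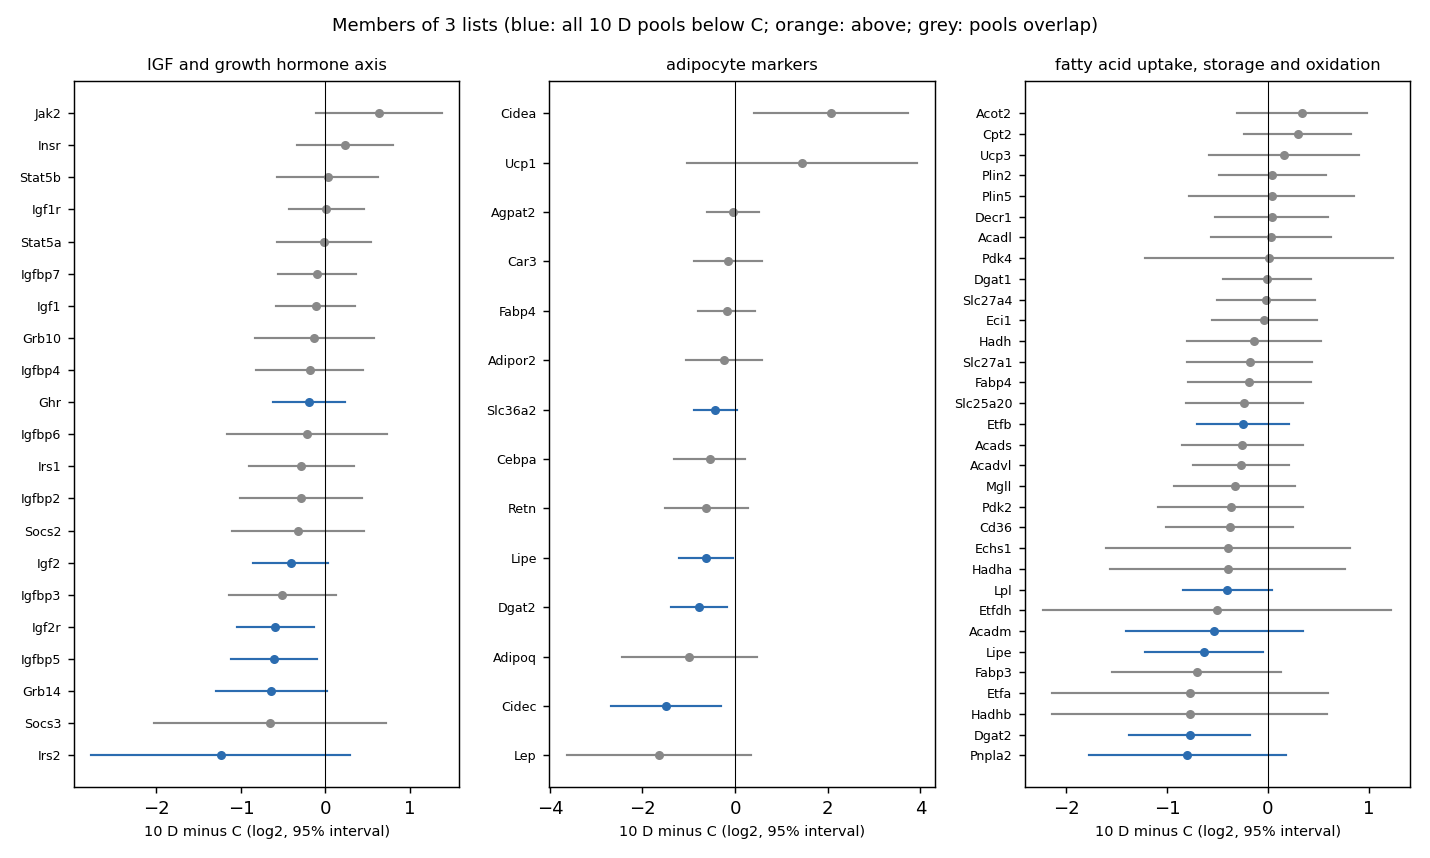
Log2 difference (10 D minus C) with its 95% interval for every tested gene of the IGF and growth hormone axis (21), the adipocyte markers (14) and the genes of fatty acid uptake, storage and oxidation (32), 1 probeset per gene. Blue marks genes whose 3 pools at 10 D lie below all C pools, and grey marks overlap. Most points lie to the left of 0, and most intervals cover it.

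Among mitochondrial genes, the citrate cycle turned on pool 2. Of 23 citrate cycle genes 21 had a negative difference with a median of -0.33, but the pool medians at 10 D were 0.02, -0.94 and -0.08. Without pool 2 of 10 D the median was -0.03, with 12 of 23 negative. Idh2, the NADP-dependent isocitrate dehydrogenase of mitochondria, was at 16.4, 16.95 and 13.3 in C and 10.4, 2.11 and 6.47 at 10 D, and its other probeset overlapped (0.31). Over 60 respiratory chain subunits the median was -0.09 and 1 was separated in each direction (1.67% each). All genes gave 6.26% upward and 4.29% downward. Cox6a2, the muscle form of a cytochrome oxidase subunit, was at 145, 119 and 117 in C, 81.1, 52.7 and 99.5 at 24 h, then 62.1, 74.1 and 75.9 at 10 D (10 D minus C -0.84 ± 0.25, unadjusted p = 0.00733, limma). Its other probeset, 1457633_x_at, overlapped with C (-0.30). Ndufs8, of complex I, differed by 0.62 on 1 probeset, while its 5 others overlapped. Ppargc1a, the coactivator that governs mitochondrial genes, was at 6.69, 4.74 and 3.68 in C and 6.76, 2.57 and 2.21 at 10 D on its brightest probeset, with overlap. Its 4 other probesets had positive differences, and 1434100_x_at was higher in every 10 D pool (0.68).

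In carbohydrate metabolism Fbp2 stood apart. This muscle fructose bisphosphatase, an enzyme of glycogen synthesis from lactate, was at 5.28, 6.86 and 7.75 in C, 26.7, 24.5 and 29.7 at 24 h, then 18.3, 11.3 and 15.6 at 10 D (10 D minus C 1.17 ± 0.24, limma, adjusted p = 0.553). Gys1, glycogen synthase, was lower in every 10 D pool, at 20.5, 23.4 and 19.0 in C and 14.2, 9.25 and 17.2 at 10 D. Phka1, a subunit of phosphorylase kinase, and Slc16a3, a lactate transporter, were higher by 0.41 and 0.38. The list of 28 glycolysis and glycogen genes had a median of -0.02. In the clock list of 18 genes 2 were separated downward (11.1%, against 4.29% of all genes) and 0 upward (6.26% of all genes). The lower ones were Per2 (-1.003 ± 0.31) and Nr1d1 (-1.21 ± 1.11), although another Per2 probeset differed by 0.24.

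Metallothioneins are small proteins that bind zinc and copper, and on 1 probeset each Mt1 and Mt3 were higher than C in every 10 D pool. On 1422557_s_at Mt1 was at 7.60, 7.21 and 6.63 in C, 67.9, 114 and 58.1 at 24 h, then 16.0, 19.8 and 19.6 at 10 D (10 D minus C 1.36 ± 0.26, limma, adjusted p = 0.553). Its 10 D level lay between the other groups with no overlap, and 10 D differed from 24 h by -2.06 (limma, adjusted p = 0.0402). Its other probeset overlapped with C (0.20). Mt2 was at 4.77, 4.04 and 7.28 in C and 9.89, 6.50 and 11.01 at 10 D, with overlap. Mt3 was at 0.117, 0.137 and 0.203 in C and 0.600, 1.00 and 1.81 at 10 D, while at 24 h it was 0.525, 0.146 and 0.121. The list of metal and oxidative stress genes, 28 in all, also held Gpx3, an extracellular glutathione peroxidase, which was lower in every 10 D pool (20.1, 19.1 and 21.6 in C, 13.5, 9.08 and 16.4 at 10 D).

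The metallothionein genes lie side by side in the genome, and metals act on them through short metal response elements, so their promoters are shown. The 250 bases before each RefSeq start (GRCm38.p6, plus strand) are given 5′ to 3′ with the core element in capitals, searched as TGCACNC and TGCGCNC on both strands. The windows are chr8:94178839-94179088 for Mt1, chr8:94172368-94172617 for Mt2 and chr8:94152357-94152606 for Mt3.
Mt1: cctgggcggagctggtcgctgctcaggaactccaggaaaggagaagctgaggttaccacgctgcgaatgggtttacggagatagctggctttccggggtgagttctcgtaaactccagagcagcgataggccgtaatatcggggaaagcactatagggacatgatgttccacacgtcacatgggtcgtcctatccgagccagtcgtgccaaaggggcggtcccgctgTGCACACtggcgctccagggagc
Mt2: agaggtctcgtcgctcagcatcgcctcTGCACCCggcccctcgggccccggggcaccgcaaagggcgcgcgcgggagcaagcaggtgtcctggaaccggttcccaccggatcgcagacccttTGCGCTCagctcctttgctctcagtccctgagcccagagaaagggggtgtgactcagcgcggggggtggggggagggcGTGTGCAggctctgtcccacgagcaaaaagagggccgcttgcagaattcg
Mt3: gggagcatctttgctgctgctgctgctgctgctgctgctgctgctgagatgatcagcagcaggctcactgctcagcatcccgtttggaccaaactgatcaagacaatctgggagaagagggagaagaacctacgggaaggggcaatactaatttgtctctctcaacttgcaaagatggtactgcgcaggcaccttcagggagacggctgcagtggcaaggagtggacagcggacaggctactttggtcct
Mt1 held 1 core element, Mt2 held 3 and Mt3 held 0 in these windows, and 21.4% of all 32851 windows held at least 1. Mt1 also held 1 TGACG, not capitalised here. The Panx1 window printed above also held the metal core TGCACNC, not capitalised there.

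Among stress genes, Cdkn1a, the cell cycle inhibitor p21, was at 1.51, 2.04 and 1.54 in C, 40.8, 33.8 and 47.0 at 24 h, then 3.29, 4.76 and 3.82 at 10 D. It remained above C in every pool (1.22 ± 0.23, limma, adjusted p = 0.553) and differed from 24 h by -3.36 (limma, adjusted p = 0.00132). Hspb8, a small heat shock protein, was at 23.9, 25.01 and 27.2 in C and 33.6, 54.0 and 33.9 at 10 D, and Hspa1b, an inducible Hsp70, differed by 0.86 on 1 probeset and by -0.12 and -0.20 on the others. The list medians were -0.04 for 28 heat shock genes and 0.04 for 26 genes of p53 and growth arrest. Lgals3, galectin 3, was at 1.12, 1.17 and 2.32 in C, 13.99, 21.4 and 14.7 at 24 h, then 2.83, 5.79 and 2.86 at 10 D. Ddit4, an inhibitor of mTOR, was at 3.19, 2.99 and 5.25 in C, 1.97, 2.22 and 1.24 at 24 h, then 6.41, 5.65 and 6.49 at 10 D, above C at 10 D and below it at 24 h in every pool.

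Agt, the precursor of the angiotensins, and Enpep, the aminopeptidase that cleaves angiotensin II, were both higher. Agt was at 0.451, 0.377 and 0.397 in C and 1.45, 1.07 and 1.23 at 10 D (1.60 ± 0.32), and Enpep at 1.72, 2.20 and 1.15 in C and 6.40, 3.25 and 5.93 at 10 D (1.61 ± 0.33). Of the 5 tested genes of the renin-angiotensin list 4 had a positive difference, with a median of 0.19, and its pool medians were higher at 10 D than in C without overlap. The other 5 of its 10 genes were not tested.

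Transcripts of endothelium and vessel growth included 5 of 25 that were lower in every 10 D pool (20%, against 4.29% of all genes) and 0 that were higher (6.26% of all genes). Kdr, the main receptor of the vascular endothelial growth factors, was at 8.29, 7.71 and 6.51 in C, 9.54, 7.94 and 7.51 at 24 h, then 5.19, 4.45 and 3.94 at 10 D (10 D minus C -0.73 ± 0.21, unadjusted p = 0.00539, limma). The growth factors Vegfa and Vegfb differed by -0.43 and -0.76, the junction protein Cldn5 by -0.45 and the nitric oxide synthase Nos3 by -0.41. Vegfb was at 8.17, 7.39 and 6.32 in C and 4.28, 3.88 and 4.72 at 10 D. Pecam1, the defining marker, overlapped, at 3.02, 3.09 and 2.63 in C and 3.90, 0.613 and 2.34 at 10 D. The list median was -0.04, and the summed level of the 25 ranged from 121.5 to 133 in C and from 111 to 137 at 10 D. The pool medians, 0.05, -0.0021 and 0.02 in C and -0.18, -0.04 and -0.10 at 10 D, did not overlap but lay close together. Without pool 2 of 10 D 7 of 25 were separated downward and 2 upward, against 8.81% and 15.7% of all genes.

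Markers of other cells overlapped. The summed levels of C and 10 D pools overlapped for collagens and matrix, smooth muscle, macrophages, lymphocytes and neutrophils, erythroid cells, nerve and keratinocytes. Keratinocyte markers varied most within a group, from 10.7 to 40.6 in C, with the highest value in pool 3, and from 13.4 to 21.9 at 10 D. Cd68 of macrophages was at 1.10, 0.955 and 0.911 in C and 0.981, 1.02 and 0.700 at 10 D. S100a8, a neutrophil protein, was at 0.205, 0.0354 and 0.196 in C and 1.36, 1.47 and 0.468 at 10 D, but Elane, another, was lower in every 10 D pool (0.955, 0.853 and 1.12 in C, 0.352, 0.399 and 0.395 at 10 D).

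Across the 48 lists, with 1044 distinct genes tested, 0 genes were called. Pool medians did not overlap for 4 lists, higher for renin-angiotensin genes and lower for fatty acid metabolism, endothelium and adipocyte markers, and overlapped for 44. Pool 2 of 10 D lay furthest from C in many of the others, as for the citrate cycle, calcium handling and the Asb and kelch-like genes.

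**Figure D4:**
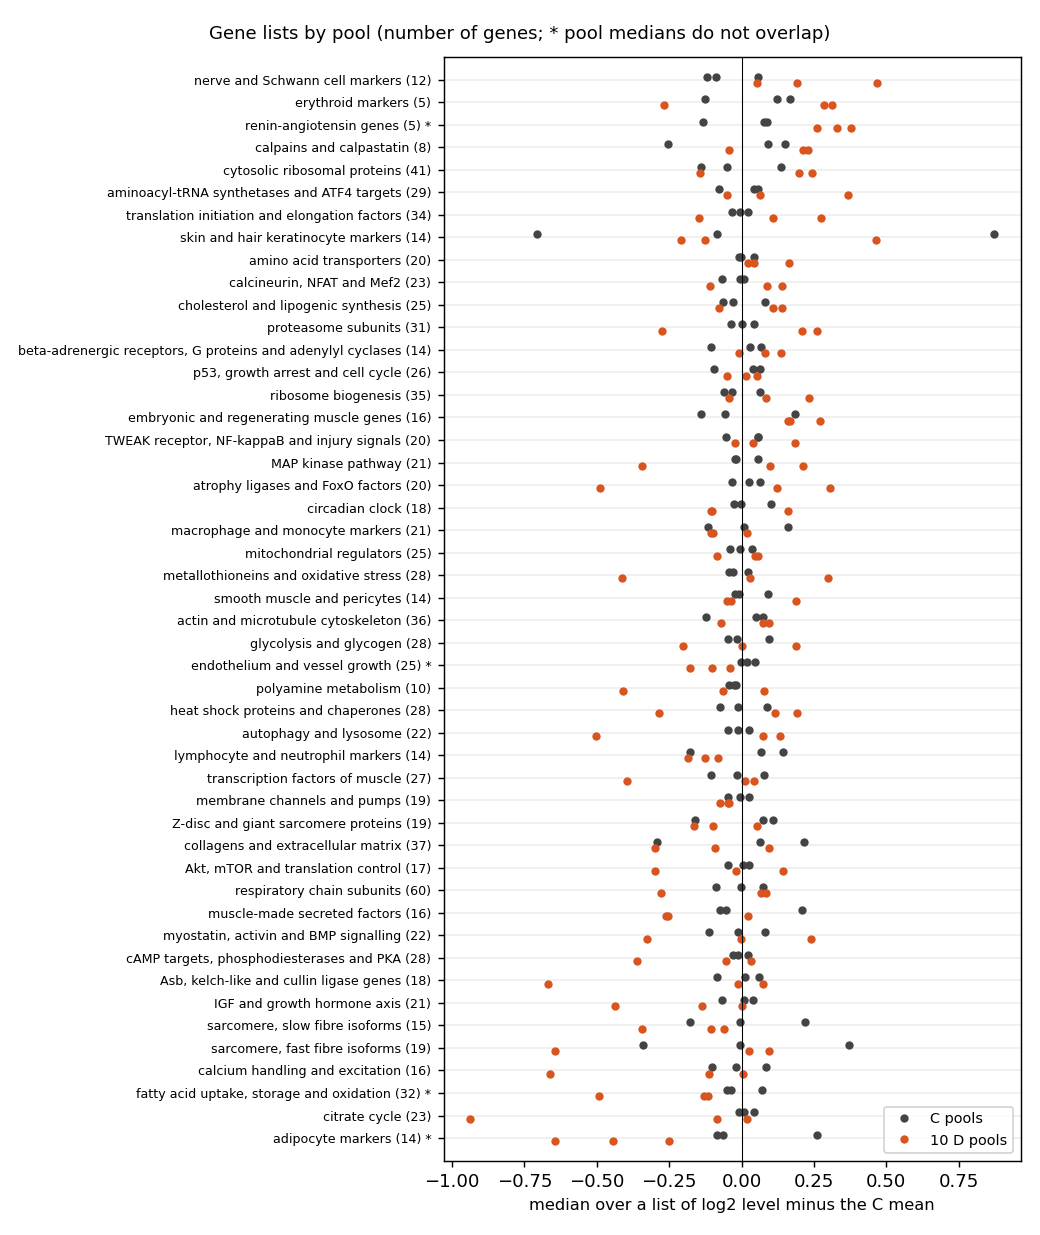
Median over the tested genes of each of 48 lists (number of genes in brackets) of a pool's log2 level minus the mean of the C pools, for the 3 C pools (dark) and the 3 pools at 10 D (orange), ordered by the list's median change. Asterisks mark the 4 lists whose pool medians do not overlap. The leftmost orange point of the citrate cycle, at -0.94, is pool 2.

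A single dose and 10 doses were compared directly by the contrast of 10 D with 24 h, which does not use the C pools as a reference. In this contrast 17 probesets of 33752 were called (0.0504%), 5 higher (0.0148%) and 12 lower (0.0356%) at 10 D. Both probesets of Tnfrsf12a, which encodes the TWEAK receptor, were among the lower ones. On 1418571_at it stood at 0.718, 0.651 and 0.668 in C, 29.1, 19.7 and 26.0 at 24 h, then 2.09, 0.527 and 2.18 at 10 D (10 D minus 24 h -4.20 ± 0.47, limma, adjusted p = 0.0262). Abra was at 22.1, 17.2 and 24.6 in C, 84.7, 103 and 88.0 at 24 h, then 18.4, 16.9 and 25.2 at 10 D. At 10 D Abra overlapped with C, as did Cxcl12, a chemokine, and Pmvk, an enzyme of the mevalonate pathway. For Tnfrsf12a on 1418571_at, pools 1 and 3 of 10 D lay above every C pool and pool 2 below them.

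The 5 probesets higher at 10 D than at 24 h were Asb15, Gadd45g, Fn3k, Mfap3l and 1433296_at. Gadd45g, a stress sensor of the GADD45 family, was at 7.11, 7.88 and 7.50 in C, 1.64, 2.13 and 1.57 at 24 h, then 11.3, 5.59 and 9.75 at 10 D. Fn3k, which removes sugar from glycated proteins, was at 1.01, 1.23 and 1.10 in C, 0.187, 0.370 and 0.370 at 24 h, then 1.52, 2.08 and 1.16 at 10 D. Of the 17 probesets 7 were separated from C at 10 D, as were 10.3% of all tested probesets. Cdkn1a, Mt1, Emd, Klhl30 and Mfap3l were above C, and Asb15 and 1433001_at below it. The other 10 overlapped with C. Mfap3l and 1433001_at stood apart from C at 10 D while their 24 h pools lay close to C or on its other side, with adjusted p-values against 24 h of 0.0691 and 0.0645.

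**Figure D5:**
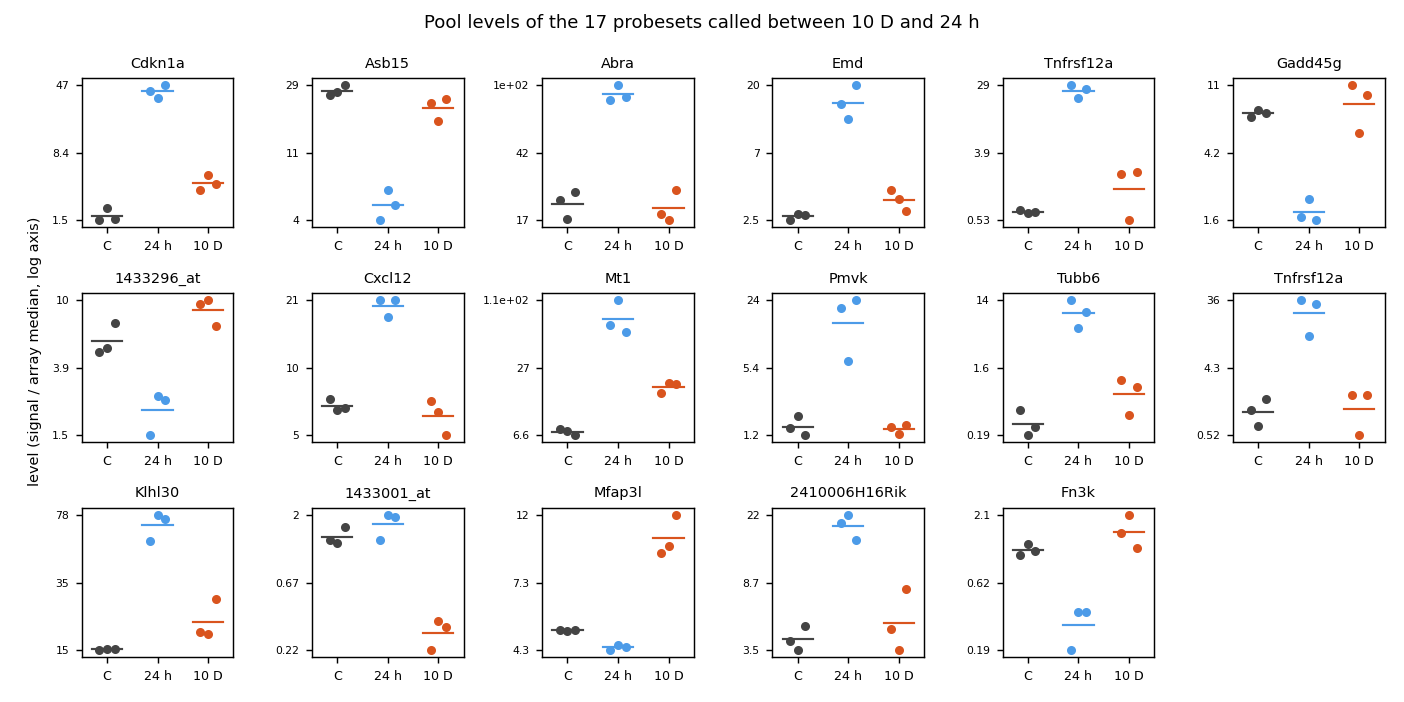
Levels (signal divided by the array median, log axis scaled to each panel) of the 17 probesets called between 10 D and 24 h, in the 3 pools of C, 24 h and 10 D. Points are pools and lines are geometric means. In most panels the 24 h points stand far from both other groups, while in Mfap3l and 1433001_at it is the 10 D points that stand apart.

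Actb, a common reference gene, was at 60.5, 83.1 and 39.8 in C and 68.4, 51.4 and 39.8 at 10 D. Other genes that the study discussed were mixed. Tinagl1, a matrix protein, was higher in every 10 D pool (3.13, 3.27 and 3.29 in C, 4.73, 4.17 and 4.80 at 10 D), as was Myo18a, an unconventional myosin (21.0, 25.7 and 20.1 in C, 32.4, 27.2 and 34.0 at 10 D). Smox of polyamine metabolism, Hopx, Ppm1l and Map2k6 overlapped with C on every probeset. Odc1, which starts polyamine synthesis, overlapped on its brightest probeset and was higher in every 10 D pool on 2 others (0.96 and 0.41), and Siah2 and Yy1 were each higher on 1 of their probesets (1.46 and 0.38). Ubr1 and Slc7a2 were also higher on 1 probeset each (0.82 and 0.32) and Mef2c on 2 (0.15 and 0.21), while their other probesets overlapped with C.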

How the data were processed

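Total RNA of gracilis muscle from 9 pools was hybridised to MOE430A and MOE430B chips. The deposited values were MAS 5.0 signal intensities on a linear scale, which the authors had not yet scaled between arrays, and their detection calls were not used here. The number of arrays limits the precision, and p-values measure the spread between pools of 3 mice, which hides that between single mice.

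Each intensity was divided by the array median, 0 was set to 0.05 (18 values), and log2 was taken. A probeset was tested if its log2 signal, averaged over the 9 arrays, was at or above the chip's 25th percentile. The 3 groups were fitted to each chip in limma 3.58.1 (R 4.3.3; lmFit, eBayes with an intensity trend), with two-sided p-values, a Benjamini-Hochberg adjustment across both chips and calls under 0.1. For list counts each gene had its brightest tested probeset. Deviations of same-numbered C and 10 D pools correlated at -0.06 to 0.03, so the numbers were not used to pair them. Those of same-numbered 24 h and 10 D pools correlated at 0.10 to 0.56 on MOE430A and 0.0077 to 0.16 on MOE430B. The script was tested on simulated data.

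Probesets were named from the platform's table with symbols brought up to GRCm38.p6: 34945 of 45037 probesets had 1 symbol, 932 several and 9160 none listed. Members, lists and the rule for named genes were chosen with earlier results of these data known. The rule took calls (up to 20 a direction), the 12 smallest p and 6 largest changes per direction among separated genes, up to 4 separated members per list with its defining gene, the 10 smallest p of any probeset, genes of the paper's text and Actb. A name outside this rule was chosen after its values were seen. Alternatives tried are given in the closing section.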

Additional observations from a re-analysis of the deposited data

Results flagged for a closer look

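The effects of the 2 treatment durations differed in a direct test (10 D minus 24 h, limma, adjusted p under 0.1) for 17 probesets. The log2 differences were -3.36 for Cdkn1a, -2.20 for Abra, -2.14 for Emd, -1.67 for Cxcl12, -2.06 for Mt1, -3.33 for Pmvk, -3.71 for Tubb6, -1.68 for Klhl30 and -1.88 for 2410006H16Rik. For Tnfrsf12a they were -4.20 and -4.33 on its 2 probesets, and for 1433001_at -2.58. Higher at 10 D than at 24 h were Asb15 by 2.04, Gadd45g by 2.27, 1433296_at by 2.05, Mfap3l by 1.23 and Fn3k by 2.39. Groups of 3 pools are too small for a test of outlying samples.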

How the results depend on the processing

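The count called at 10 D against C was 0 under quantile normalization, division by the median of the brighter probesets, cyclic loess, no filter, a filter at the 50th percentile, C and 10 D pools only, no intensity trend, robust variance and no moderation. It was 1 with log2(level + 0.5), 2 with each chip adjusted alone and 3 with the replicate block, all of them among 1448975_s_at, Slc7a5 and 1439616_at. Leaving out 1 pool gave 0 to 1, the 1 being Dbx1 without C pool 2. Array weights gave 2880, with a weight of 17.1 on pool 3 of 10 D on MOE430A and no convergence there. The 2 alternatives chosen after seeing the data gave 171 (array weights by the gene-by-gene method) and 5 (without pool 2 of both treatments). The 5 were Tnfrsf12a, 1448975_s_at and 1439616_at, higher at 10 D, and Malat1 and Tmem214, lower. The unadjusted counts of 892 higher and 648 lower became 3538 and 3116 with array weights, 2310 and 2154 with the gene-by-gene method, 1777 higher without pool 2 of both treatments, and 399 lower under the filter at the 50th percentile, and leaving out 1 pool gave 641 to 1153 and 322 to 1294. The separated counts became 4816 higher and 3178 lower without pool 2 of both treatments, 983 lower under the filter at the 50th percentile, and 3064 to 4816 and 2517 to 4195 without 1 pool, since fewer pools separate more easily.

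The 17 calls of 10 D against 24 h became 40 under quantile normalization and under cyclic loess, 33 with the brighter probesets, 31 with log2(level + 0.5), 5 with no intensity trend, 2138 with array weights, 331 with the gene-by-gene method and 110 without pool 2 of both treatments. The fit with the replicate block also called 17. Leaving out 1 pool gave 1 (without 24 h pool 3) to 76 (without 10 D pool 2).

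Of 188 named probesets 22 reversed under some alternative. Outside the weights and omitted pools this was only Trim63 (-0.037 under quantile normalization). Array weights gave 0.070 for Acta1, 0.091 for Ckm, 0.043 for Myh4, -0.045 for Siah2, 0.011 for Tsc22d1, 0.10 for Ubr1 and -0.019 for Yy1, and the gene-by-gene method 0.0069 for Ckm and 0.090 for Ubr1. Without pool 2 of both treatments Eif5 was 0.069, Map2k6 0.19, Myh7 -0.16, Myog -0.14, Pecam1 0.054, Ppm1l 0.0033, Tsc22d1 0.025 and Ubr1 0.32. With 1 pool left out the ranges that crossed 0 were -0.45 to 0.081 for Actb, -0.25 to 0.020 for Cd68, -0.42 to 0.10 for Ckm, -0.045 to 0.36 for Eif4g3, -0.30 to 0.069 for Eif5, -0.021 to 0.48 for Gadd45g, -0.21 to 0.056 for Igf1, -0.51 to 0.19 for Map2k6, -0.55 to 0.10 for Myh1, -0.50 to 0.11 for Myh4, -0.16 to 0.50 for Myh7, -0.14 to 0.45 for Myog, -0.11 to 0.74 for Odc1, -1.28 to 0.054 for Pecam1, -0.82 to 0.0033 for Ppm1l, -0.089 to 0.35 for Slc7a2, -0.48 to 0.86 for Trim63, -0.21 to 0.025 for Tsc22d1 and -0.41 to 0.32 for Ubr1. The cause of these changes was not tested. The list medians of adipocyte markers (-0.62 to -0.33), fatty acid metabolism (-0.33 to -0.11), the IGF axis (-0.33 to -0.13) and renin-angiotensin genes (0.13 to 0.38) kept their sign in all of these alternatives. Signal over background limits the weak transcripts, in which the largest changes lie.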
